A study of Mus musculus with 6 samples.

Results

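The transcripts of 10 genes for inflammatory cytokines and cytokine receptors (Tnf, Il1b, Il1a, Il1rn, Il6, Il10, Il18, Il15, Il15ra and Il6ra) were examined in J774 cells, a mouse macrophage line, after knockdown of NCOA4. The genes were chosen by name, and all 10 were found among the 55487 Ensembl gene identifiers of the series by their GENCODE M21 symbols. NCOA4 is the cargo receptor that carries the iron store ferritin to the lysosome, and the study asked how its loss affects macrophages. All 6 cultures were J774 cells that received a small interfering RNA (siRNA) in liposomes, either a control siRNA (siControl, 3 biological replicates) or an siRNA against NCOA4 (siNCOA4, 3 biological replicates). J774 is a transformed line of a single cell type, no endotoxin or other stimulus is listed for these cultures, and the sources used here do not tie a time from transfection to RNA isolation to these RNA-seq cultures.

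Macrophages release cytokines, small secreted proteins by which immune cells signal to each other. TNF and the interleukin-1 cytokines start inflammation, IL-6 carries it to other tissues, IL-10 and the IL-1 receptor antagonist restrain it, and IL-18 and IL-15 act mainly on lymphocytes. IL-1β and IL-18 are made as precursors and cut by caspase-1, and IL-15 is shown to neighbouring cells by its own receptor α chain, so the transcripts described here do not give the amount of active protein.

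Expression is given as TPM, a transcript abundance that scales reads by gene length and library total. The length is that of all annotated exons of a gene merged, so levels of different genes can be compared only approximately. Between 15502131 and 18282107 reads per library were rebuilt on genes, and a single read on a 2 kb gene was worth 0.0825 to 0.0959 TPM. Libraries of a group differed by more than counting noise, and siControl replicate 1 stood apart. Its reads differed from those of siControl replicates 2 and 3 by a chi-square per gene of 11.6 and 11.7, against 3.60 between the latter and 1.96 to 2.35 between siNCOA4 replicates. Ncoa4 itself, which may share reads with a processed pseudogene, was 19.7 to 22.5 TPM in siControl and 8.60 to 9.63 TPM in siNCOA4 libraries (log2 fold change -1.21, limma, adjusted p = 0.00127). All 10 macrophage markers examined were at a mean of 10 TPM or more, with a summed level of 8650 to 8841 TPM in siControl and 8981 to 9083 TPM in siNCOA4 libraries. Of these markers, 4 were higher at an adjusted p under 0.05 (Fcgr1, Mertk, Csf1r and Adgre1), against 3.11% of all tested genes. Cd14 was lower, against 2.31%. Fcgr1 and Adgre1 also exceeded a fold change of 1.5, and 0.861% of all tested genes were higher at both thresholds. The part of these markers in the cytokine results was not tested. Markers of B cells, fibroblasts, epithelium and erythroid cells summed to at most 0.534 TPM in any library, and among those of T cells, neutrophils and dendritic cells Lck (4.81 to 5.47 TPM), S100a8 (15.3 to 25.2 TPM) and Zbtb46 (1.78 to 2.71 TPM) had a mean of at least 0.5 TPM.

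In siControl cells the 10 genes spanned abundant transcripts to almost no reads. Tnf (94.9 ± 6.90 TPM) and Il1rn (93.6 ± 7.46 TPM) were highest and did not differ beyond the spread of their libraries. Il6ra (27.8 ± 1.26 TPM), Il1a (22.0 ± 1.03 TPM), Il18 (15.2 ± 1.01 TPM) and Il15 (11.5 ± 2.38 TPM) followed in that order with no overlap between neighbours (SD, n = 3 each). Il1b (2.63 ± 0.614 TPM) and Il15ra (1.79 ± 0.153 TPM) were low and their libraries overlapped, and Il10 and Il6 were near 0. Il10 and Il6 remained near 0 with siNCOA4.

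**Figure D1:**
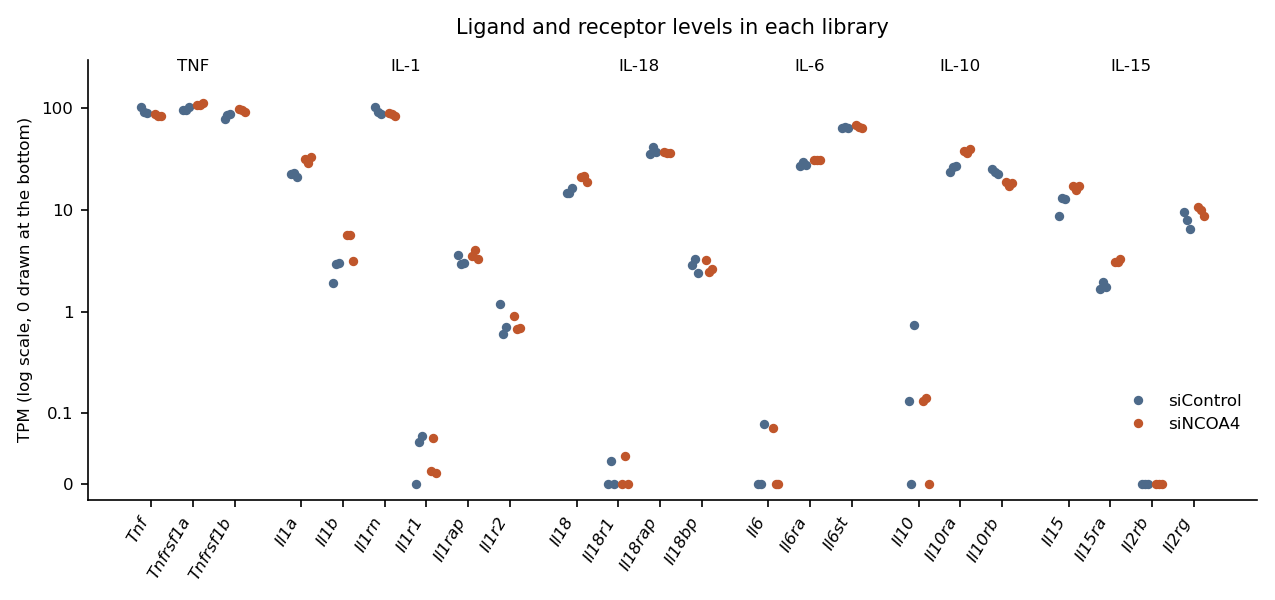
TPM of ligands and receptor chains of 6 cytokine systems in each library, on a log axis with values of 0 drawn at the bottom; each point is 1 library, blue for siControl and orange for siNCOA4. Il6, Il10, Il1r1, Il18r1 and Il2rb lie at or near 0 in both groups, and Tnf, its receptors and Il1rn lie near 100 TPM.

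The comparison asked which of these genes differed between NCOA4-depleted and control macrophages. Of the 10 genes, 8 had a mean of at least 0.5 TPM and were tested with limma together with the other genes above that level, 13829 in all. Il15ra, Il1a and Il18 were higher with siNCOA4 at an adjusted p under 0.05, where 3.11% of all tested genes were, and 0 of the 8 were lower at that threshold, where 2.31% were. Il15ra also exceeded a fold change of 1.5, the study's second criterion, and was the 1 member called differentially expressed; 1.18% of all tested genes were called in either direction and 0.861% were called higher. The siNCOA4 values of 6 members all lay above the siControl values (Il1a, Il1b, Il18, Il15, Il15ra and Il6ra), as did those of 16.6% of all tested genes, and those of 1 member, Tnf, all lay below, as did those of 11.8%. Of all tested genes 57.4% had a log2 fold change above 0, and of the 8 members 6 did. Among the 8, the median log2 fold change was 0.45, against 0.03 over all tested genes. The 10 genes were chosen with earlier results of these data known. RNA of whole cultures was measured, so a change in the share of cells that express a gene and a change per cell cannot be told apart. The study's methods name a single siRNA against NCOA4, so effects of its sequence and of NCOA4 loss cannot be told apart either.

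**Figure D2:**
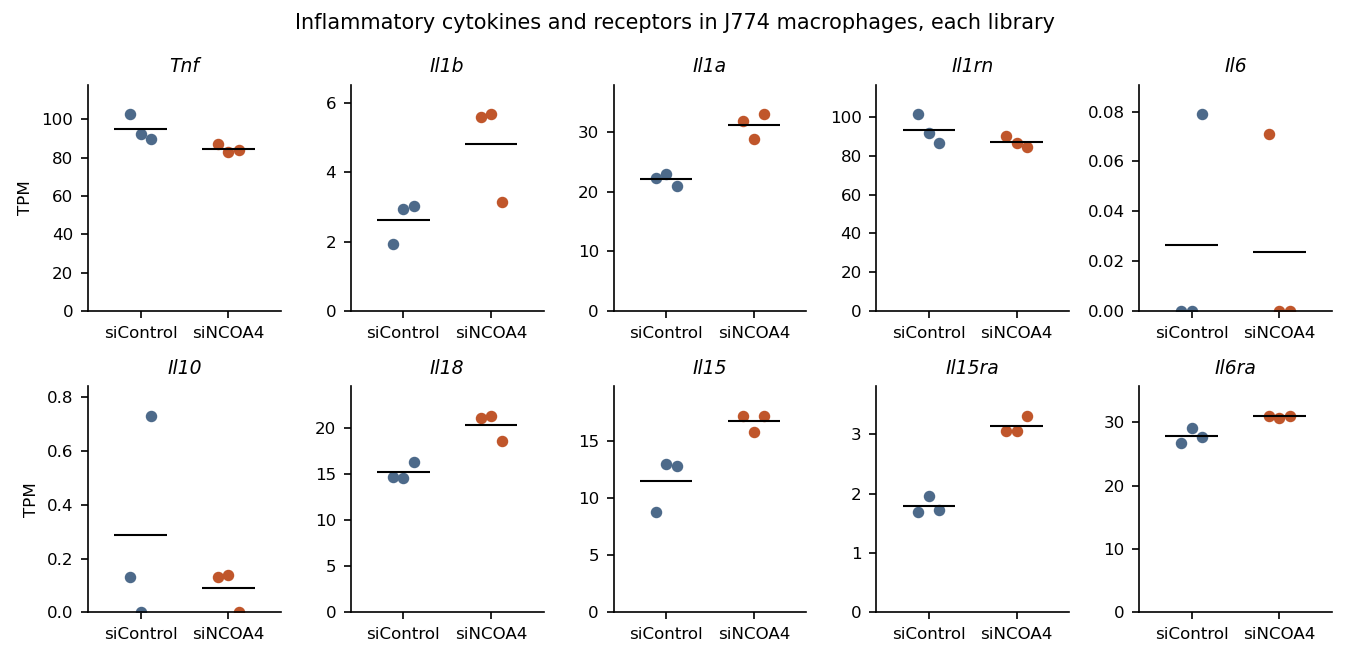
TPM of the 10 genes in each of the 6 libraries, with each panel on its own linear axis from 0; points are libraries and the black line is the group mean (n = 3 each). The groups are separated for Il1a, Il18, Il15, Il15ra and Il6ra, Il1b is separated by a small gap, Tnf is separated downward, and the Il6 and Il10 panels cover less than 1 TPM.

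The called gene belongs to the IL-15 system. IL-15 sustains natural killer cells and memory T cells, and IL-15Rα, encoded by Il15ra, binds it with high affinity and presents it on the surface of the producing cell. Il15ra (ENSMUSG00000023206) is encoded on chromosome 2 between 11705290 and 11734317, plus strand (GRCm38, as are all positions here). RefSeq gives it a pair of start sites, and the 300 bases around each (250 before the start and 50 after, GRCm38.p6, plus strand) are shown because it was the gene that was called.
Il15ra, first start, chr2:11705043-11705342: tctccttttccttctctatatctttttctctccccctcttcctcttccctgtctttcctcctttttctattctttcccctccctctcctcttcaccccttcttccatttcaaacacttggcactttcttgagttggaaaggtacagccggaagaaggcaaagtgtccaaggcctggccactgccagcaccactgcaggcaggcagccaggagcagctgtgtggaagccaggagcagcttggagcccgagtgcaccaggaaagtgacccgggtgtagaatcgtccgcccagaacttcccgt
Il15ra, second start, chr2:11705462-11705761: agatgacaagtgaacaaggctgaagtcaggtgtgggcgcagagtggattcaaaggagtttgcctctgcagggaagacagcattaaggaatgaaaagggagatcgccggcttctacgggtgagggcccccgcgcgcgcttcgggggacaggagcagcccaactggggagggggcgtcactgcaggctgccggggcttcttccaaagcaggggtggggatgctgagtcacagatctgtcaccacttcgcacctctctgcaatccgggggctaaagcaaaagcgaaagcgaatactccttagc
Neither window held the NF-κB site consensus (the 10-base κB consensus, present in 8.46% of 32841 mouse promoter windows of this length), the interferon-stimulated response element core (GAAA, any 2 bases and GAAA, in 3.44%) or TATAAA (in 13.6%), each searched on both strands. Only full matches were counted, so sites that differ from these patterns by a base would be missed.

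Il15ra was 1.68, 1.97 and 1.73 TPM in siControl replicates 1 to 3 and 3.06, 3.05 and 3.32 TPM in siNCOA4 replicates 1 to 3. The groups were clearly separated, with every siNCOA4 library above the highest siControl library. The means were 1.79 ± 0.153 and 3.14 ± 0.150 TPM (SD, n = 3 each), a ratio of 1.75, and they rest on 136 and 242 reads. On the log2(TPM + 0.5) scale the fold change was 0.67 ± 0.13 (SE, limma, adjusted p = 0.0314), and the exact two-sided permutation test gave p = 0.1, the smallest that 3 against 3 libraries allow. The call was lost without any 1 of the 6 libraries. The adjusted p was 0.0624, 0.0526 and 0.0808 without siControl replicates 1 to 3 and 0.116, 0.117 and 0.133 without siNCOA4 replicates 1 to 3, while the log2 fold change stayed between 0.64 and 0.72. A pseudocount of 1 brought it to 0.57 (limma, adjusted p = 0.0309), under the fold threshold. The call was kept with limma-voom on the rebuilt reads (log2 fold change 0.78, adjusted p = 0.00746).

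Il15 (ENSMUSG00000031712, chromosome 8, 82331632 to 82403222, minus strand) encodes the cytokine. Its level was 8.78, 13.0 and 12.8 TPM in siControl replicates 1 to 3 and 17.2, 15.7 and 17.2 TPM in siNCOA4 replicates 1 to 3. The groups did not overlap, and siControl replicate 1 was the lowest library by a wide margin. The means of 11.5 ± 2.38 and 16.7 ± 0.848 TPM (SD, n = 3 each) differed by 0.54 ± 0.15 on the log2 scale (SE, limma, adjusted p = 0.0919), which missed the threshold. Without siControl replicate 1 the difference was smaller at 0.36 but passed (limma, adjusted p = 0.0348), and limma-voom on the rebuilt reads gave 0.53 with an adjusted p of 0.0154. In each library Il15 exceeded Il15ra, by 5.21 to 7.42 times with siControl and 5.16 to 5.63 times with siNCOA4.

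The signalling chains that IL-15 shares with IL-2 were unevenly present. Il2rb, the β chain that transmits the IL-15 signal, had 0 reads in every library, which allows up to 0.116 to 0.134 TPM depending on the library. Il2ra, the IL-2-specific α chain, also had 0 reads throughout, and it is the nearest protein-coding gene upstream of Il15ra, 12096 bases away. Il2rg, the common γ chain, was 7.96 ± 1.45 TPM with siControl and 9.68 ± 1.01 TPM with siNCOA4 (SD, n = 3 each), with overlapping groups and a difference of 0.28 on the log2 scale (limma, adjusted p = 0.312). On the other side of Il15ra, 8255 bases away and on the opposite strand, the DNA helicase gene Fbh1 was 40.58, 40.10 and 40.05 TPM with siControl and 47.5, 44.7 and 47.5 TPM with siNCOA4. It was higher in every siNCOA4 library by 0.21 on the log2 scale (limma, adjusted p = 0.0429), and its adjusted p was 0.0512 to 0.169 with single libraries left out. The 13 genes for common γ chain cytokines and their receptors included these 3 chains and the kinase Jak3, and 5 were tested. Of the 5, with a median log2 fold change of 0.28, 1 was called, Il4ra, against 1.18% of all tested genes. Il4ra, the IL-4 receptor α chain, was 9.17, 8.63 and 11.4 TPM with siControl and 15.5, 16.1 and 16.95 TPM with siNCOA4, higher in every siNCOA4 library (log2 fold change 0.71 ± 0.11 SE, limma, adjusted p = 0.0167). Its adjusted p rose to 0.0696, 0.0751 and 0.0787 without siNCOA4 replicates 1 to 3.

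The IL-1 ligands came next. IL-1α, encoded by Il1a, is active as made and is held in the cell until it is released, IL-1β, encoded by Il1b, is secreted after processing, and the antagonist IL-1Ra, encoded by Il1rn, occupies the same receptor without signalling. Il1a (ENSMUSG00000027399, chromosome 2, 129299610 to 129309972) and Il1b (ENSMUSG00000027398, chromosome 2, 129364570 to 129371139) are neighbours on the minus strand, 54597 bases apart, and Il1rn (ENSMUSG00000026981, chromosome 2, 24336853 to 24351494, plus strand) lies 104.9 Mb away. The 70 bases around the start sites of Il1a, Il1b, Tnf and Il6 (60 before and 10 after, RefSeq, GRCm38.p6) are shown for the sequence that the first 3 share, with TATAAA or a κB consensus match in capitals.
Il1a, chr2:129309963-129310032, minus strand: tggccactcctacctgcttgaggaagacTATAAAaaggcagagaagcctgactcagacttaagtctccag
Il1b, chr2:129371130-129371199, minus strand: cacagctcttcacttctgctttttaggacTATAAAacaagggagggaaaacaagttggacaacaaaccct
Tnf, chr17:35201998-35202067, minus strand: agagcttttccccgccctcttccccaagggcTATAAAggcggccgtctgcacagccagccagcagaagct
Il6, chr5:30013054-30013123, plus strand: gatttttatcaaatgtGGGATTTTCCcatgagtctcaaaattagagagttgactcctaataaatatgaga
TATAAA began 32, 31 and 29 bases before the start of Il1a, Il1b and Tnf on the strand of the gene, and 1.99% of all windows held it between 40 and 20 bases before the start. The κB consensus match of Il6 began 44 bases before its start and was the 1 such match in the 11 windows of the 8 members other than Il10 and Il15. Il18 and the third start of Il1rn held TATAAA on the opposite strand, 175 bases before and 15 bases after the start. Of the 3 genes that share the TATAAA position, Il1a rose, while Il1b and Tnf missed the threshold with fold changes of opposite sign. Whether the shared sequence bears on these changes was not tested.

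Il1a was 22.3, 22.9 and 20.9 TPM in siControl replicates 1 to 3 and 31.8, 28.8 and 33.0 TPM in siNCOA4 replicates 1 to 3. Both groups were tight and did not overlap. The means were 22.0 ± 1.03 and 31.2 ± 2.15 TPM (SD, n = 3 each), a ratio of 1.42 under the fold threshold, with a log2 fold change of 0.49 ± 0.07 (SE, limma, adjusted p = 0.0121). Its adjusted p was 0.0693 without siNCOA4 replicate 1 and 0.0598 without siNCOA4 replicate 3, and 0.0215 to 0.0412 without any other library. Of its 1974 exon bases, 222 are shared with Gm14023, a transcript on the other strand at 0.0926 to 0.309 TPM, and whether reads were counted by strand is not given in the sources used here.

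Il1b was 1.92, 2.94 and 3.02 TPM in siControl replicates 1 to 3, or 21, 34 and 30 reads. With siNCOA4 it was 5.60, 5.68 and 3.13 TPM, or 62, 59 and 36 reads. siNCOA4 replicates 1 and 2 were well above all siControl libraries, and siNCOA4 replicate 3 lay just above the highest of them. The log2 fold change of 0.74 ± 0.25 (SE) was the largest of the members but missed the threshold (limma, adjusted p = 0.155, 95% interval 0.14 to 1.34). Intervals given here are for single genes, without adjustment for the number of genes tested. The log2 fold change of Il1b was 0.99 without siNCOA4 replicate 3 (limma, adjusted p = 0.0898) and 0.57 without siControl replicate 1 (limma, adjusted p = 0.263).

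Il1rn was 102, 92.1 and 86.9 TPM in siControl replicates 1 to 3 and 90.4, 86.8 and 84.5 TPM in siNCOA4 replicates 1 to 3. These groups overlapped, and siControl replicate 1 was the highest library. The means of 93.6 ± 7.46 and 87.2 ± 2.97 TPM (SD, n = 3 each) differed by a log2 fold change of -0.10 (limma, adjusted p = 0.425, 95% interval -0.25 to 0.05), and by -0.04 without siControl replicate 1. The antagonist transcript was the most abundant of the 3 in every library. It exceeded Il1a by 4.55, 4.02 and 4.16 times in siControl replicates 1 to 3 and by 2.84, 3.01 and 2.56 times in siNCOA4 replicates 1 to 3, with no overlap. Over Il1b the excess was 53.0, 31.3 and 28.8 times with siControl and 16.1, 15.3 and 27.0 times with siNCOA4.

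The receptor that transmits IL-1 was almost unread. Il1r1 had 4 reads in each group, at most 0.0603 TPM in a library. Il1rap, the accessory chain that Il1r1 needs, was 3.17 ± 0.368 and 3.59 ± 0.369 TPM (SD, n = 3 each, log2 fold change 0.16, limma, adjusted p = 0.529), and Il1r2, a decoy receptor, was 0.832 ± 0.311 and 0.757 ± 0.126 TPM (log2 fold change -0.06, limma, adjusted p = 0.912), with siControl and siNCOA4 respectively. Neither differed beyond the spread of the libraries, and the sign of Il1r2 turned without siControl replicate 1. The 6 other IL-1 family ligands listed, the IL-36 genes, Il33 and Il1f10 among them, were all under a mean of 0.5 TPM. Of 12 genes of IL-1 and IL-18 processing and signalling, all tested, 2 were higher at an adjusted p under 0.05 and 0 were lower. Over all tested genes the shares at that threshold were 3.11% higher and 2.31% lower. The median log2 fold change of the 12 was 0.06. Casp1, the protease that cuts the precursors of IL-1β and IL-18, was 44.2 ± 2.94 and 55.6 ± 2.98 TPM (SD, n = 3 each, log2 fold change 0.33, limma, adjusted p = 0.0364). Irak1, a kinase of the IL-1 receptor complex, was 35.9 ± 0.702 and 43.3 ± 0.568 TPM (log2 fold change 0.27, limma, adjusted p = 0.0171). With alternative settings the adjusted p ranged from 0.0235 to 0.136 for Casp1 and from 0.00695 to 0.0915 for Irak1.

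**Figure D3:**
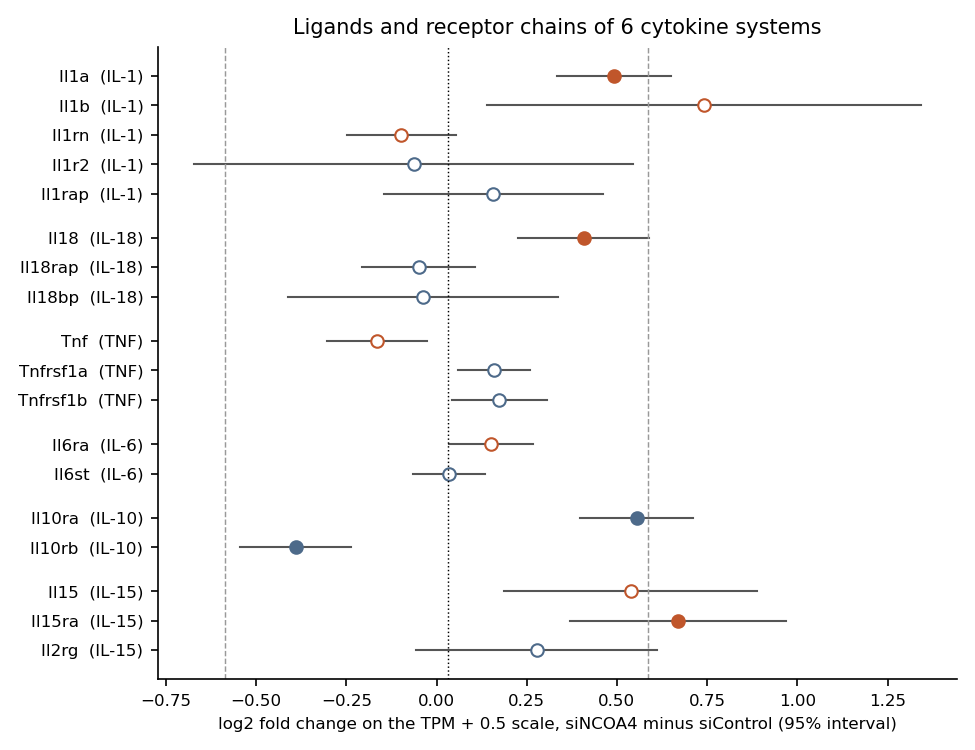
Log2 fold change (siNCOA4 minus siControl, on the TPM + 0.5 scale) with its 95% interval from limma for the tested ligands and receptor chains; orange marks the 8 tested members, blue other chains, and filled points an adjusted p under 0.05. The dotted line is the median of all tested genes (0.03) and the dashed lines are a fold change of 1.5 in each direction. Il10ra and Il10rb lie on opposite sides of 0. Intervals are for single genes, without adjustment for the number of genes tested.

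IL-18 drives interferon γ production by lymphocytes. Il18 (ENSMUSG00000039217, chromosome 9, 50554827 to 50581840, plus strand) was 14.7, 14.6 and 16.4 TPM in siControl replicates 1 to 3 and 21.04, 21.4 and 18.6 TPM in siNCOA4 replicates 1 to 3. All siNCOA4 libraries were above all siControl libraries, with siNCOA4 replicate 3 nearest to them. The means were 15.2 ± 1.01 and 20.4 ± 1.49 TPM (SD, n = 3 each), with a log2 fold change of 0.41 ± 0.08 (SE, limma, adjusted p = 0.0314). It passed without siControl replicate 3 (0.0467) and missed without siControl replicate 1 (0.0599) or 2 (0.0787) and without siNCOA4 replicate 1 (0.131), 2 (0.130) or 3 (0.0592), all from limma, and it missed with limma-voom (0.0768). Bco2 and Tex12 overlap its span on the other strand and share 0 of its exon bases.

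The receptor for IL-18 was present in part. Il18rap, the accessory chain, was 37.7 ± 3.25 TPM with siControl and 36.3 ± 0.412 TPM with siNCOA4 (SD, n = 3 each, log2 fold change -0.05, limma, adjusted p = 0.708), which was above the level of Il18 itself in every library. Il18r1, the chain that binds IL-18, had 1 read in each group. Il18bp, the secreted inhibitor of IL-18, was 2.85 ± 0.432 and 2.77 ± 0.426 TPM (log2 fold change -0.04, limma, adjusted p = 0.915). The groups overlapped for both Il18rap and Il18bp, whose signs turned without siControl replicate 2 (0.017 and 0.051).

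TNF is among the first cytokines that activated macrophages release, and its transcript is known to be held in check by AU-rich elements in its 3′ untranslated region. Tnf (ENSMUSG00000024401, chromosome 17, 35199381 to 35202007, minus strand) was 103, 92.4 and 89.6 TPM in siControl replicates 1 to 3 and 87.0, 82.8 and 83.8 TPM in siNCOA4 replicates 1 to 3. It was lower in every siNCOA4 library, but the gap between the groups was small beside the spread of siControl. The means of 94.9 ± 6.90 and 84.5 ± 2.20 TPM (SD, n = 3 each) gave a log2 fold change of -0.16 ± 0.06 (SE, limma, adjusted p = 0.168), and -0.11 without siControl replicate 1 (limma, adjusted p = 0.176). Its receptors lay on the other side of 0. Tnfrsf1a, the death-domain receptor, was 97.4 ± 3.35 and 109 ± 2.58 TPM (log2 fold change 0.16, limma, adjusted p = 0.0832), and Tnfrsf1b was 83.7 ± 4.89 and 94.4 ± 3.58 TPM (SD, n = 3 each, log2 fold change 0.17, limma, adjusted p = 0.135). Every siNCOA4 library was above every siControl library for both receptors, although neither passed the threshold.

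Of 15 genes for TNF ligands, receptors and proximal signalling, all tested, 1 was higher at an adjusted p under 0.05 and 0 were lower. Over all tested genes the shares at that threshold were 3.11% higher and 2.31% lower. The median log2 fold change of the 15 was 0.16. The gene that passed was Casp8, a protease of the TNF receptor death-signalling complex. It was 85.2 ± 3.37 and 101 ± 1.88 TPM (SD, n = 3 each, log2 fold change 0.24, limma, adjusted p = 0.0264, and 0.0113 to 0.120 over the alternatives).

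The 3′ untranslated regions of the members differed in AU-rich sequence. ATTTA, the core of an AU-rich element, occurred 8 times in the 764 bases of Tnf, 4 times in the 459 bases of Il1b, 6 times in the 706 bases of Il10 and 10 times in the 1668 bases of Il6. Per kb this was 10.5, 8.71, 8.5 and 6.0, against a median of 1.30 over 10760 tested genes with a 3′ untranslated region, of which 69.3% held ATTTA. Il15ra held 5 (4.68 per kb), Il15 1 (3.55 per kb), Il18 1 (2.99 per kb), Il1a 3 (2.72 per kb), Il6ra 4 (0.56 per kb) and Il1rn 0. The longer element TTATTTATT, which contains ATTTA, occurred 5 times in Tnf, as often or more in 0.13% of these genes, and in no other member, where 8.0% of genes held at least 1. The stretch of Tnf that holds most of them (GRCm38, GENCODE M21, ATTTA in capitals) is shown because it sets Tnf apart from the other members.
Tnf, chr17:35199679-35199708, minus strand: attATTTAttATTTATTTAttATTTATTTA
The members with the densest ATTTA included Tnf, with a lower level in every siNCOA4 library, Il1b, with a higher one, and the nearly silent Il6 and Il10. A part of ATTTA in these levels was not tested. Of 16 genes for proteins that bind AU-rich elements or degrade transcripts, all tested, 0 had an adjusted p under 0.05. Over all tested genes the shares at that threshold were 3.11% higher and 2.31% lower. The siNCOA4 values of 4 of the 16 all lay below the siControl values, and those of 1 all lay above. These shares were 11.8% and 16.6% over all tested genes. The median log2 fold change of the 16 was 0.03. Zfp36, which encodes tristetraprolin, was 27.9 ± 0.760 and 25.4 ± 0.423 TPM (SD, n = 3 each, log2 fold change -0.13, limma, adjusted p = 0.158) and is named after its values were seen.

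IL-6 signals through its receptor α chain and the shared chain gp130. Il6 (ENSMUSG00000025746, chromosome 5, 30013114 to 30019981, plus strand) had 1 read in siControl replicate 3 and 1 read in siNCOA4 replicate 1, and 0 reads in the other 4 libraries. Over the depths of the 6 libraries a count of 0 allows up to 0.204 to 0.237 TPM, so a difference below that level was not detectable at this depth. Il6ra (ENSMUSG00000027947, chromosome 3, 89864059 to 89913196, minus strand) was nonetheless well read, at 26.7, 29.2 and 27.6 TPM in siControl replicates 1 to 3 and 31.0, 30.7 and 31.1 TPM in siNCOA4 replicates 1 to 3. The siNCOA4 libraries were nearly equal to each other and above every siControl library. The means of 27.8 ± 1.26 and 30.9 ± 0.203 TPM (SD, n = 3 each) gave a log2 fold change of 0.15 ± 0.05 (SE, limma, adjusted p = 0.141), short of the threshold. Il6st, which encodes gp130, was 64.0 ± 1.35 and 65.6 ± 2.04 TPM (SD, n = 3 each, log2 fold change 0.03, limma, adjusted p = 0.679), with overlapping groups, and its sign turned with median centring (-0.023). Of 14 genes for other gp130 cytokines and receptors, Il6st among them, 5 were tested and 0 had an adjusted p under 0.05. Of all tested genes 3.11% were higher at that threshold and 2.31% were lower.

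IL-10 restrains macrophages by way of a receptor of a ligand-binding chain, Il10ra, and an accessory chain, Il10rb. Il10 (ENSMUSG00000016529, chromosome 1, 131019845 to 131024974, plus strand) had 1, 0 and 5 reads in siControl replicates 1 to 3 and 1, 1 and 0 reads in siNCOA4 replicates 1 to 3. The highest value, 0.732 TPM in siControl replicate 3, stood alone, and the groups overlapped (exact two-sided permutation test, p = 0.7). Its receptor chains moved in opposite directions. Il10ra was 23.6, 26.1 and 27.0 TPM with siControl and 38.0, 35.9 and 39.4 TPM with siNCOA4, a log2 fold change of 0.55 ± 0.07 (SE, limma, adjusted p = 0.00776), with no overlap. Il10rb was 25.2, 23.6 and 22.6 TPM with siControl and 18.8, 16.97 and 18.3 TPM with siNCOA4, a log2 fold change of -0.39 ± 0.06 (SE, limma, adjusted p = 0.0225), also with no overlap. The ratio of Il10ra to Il10rb was 0.939, 1.11 and 1.20 in siControl replicates 1 to 3 and 2.02, 2.12 and 2.15 in siNCOA4 replicates 1 to 3. The increase of Il10ra had an adjusted p of 0.000118 to 0.0487 over all alternatives. The decrease of Il10rb missed the threshold without siControl replicate 2 (0.0567) and without siNCOA4 replicates 1, 2 or 3 (0.0744, 0.0915 and 0.0890, limma). Of 11 genes of the IL-10 family and its receptors, 3 were tested and these were the 2 that passed. Of all tested genes 3.11% were higher at that threshold and 2.31% were lower.

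**Figure D4:**
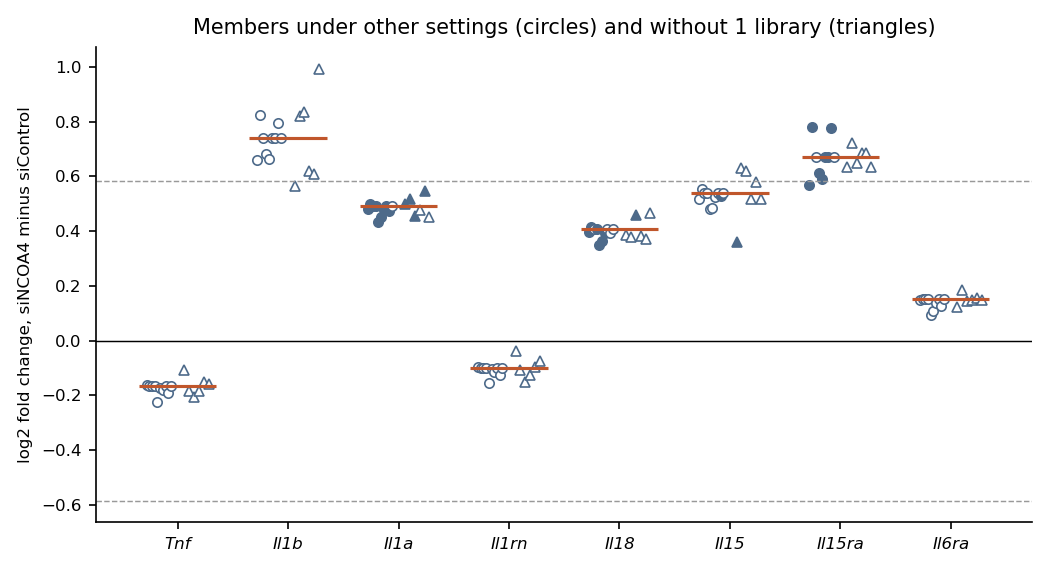
Log2 fold change of the 8 tested members under other settings (circles) and with 1 library left out (triangles); filled symbols have an adjusted p under 0.05, the orange bar is the value with all libraries and the dashed lines are a fold change of 1.5. No member changed sign, no Il15ra triangle is filled, and the Il15 triangle at 0.36 is the fit without siControl replicate 1. Circles of the filter, trend and block settings equal the bar by construction.

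The other cytokine genes listed were mostly silent ligands and expressed receptors. Of 36 other cytokine ligands 22 were under a mean of 0.5 TPM, Il12a, Il12b and Ifng among them with 0 TPM in every library. Of the 14 that were tested 7 were higher, where 57.4% of all tested genes were, and 7 lower, around a median of -0.02 (log2 fold change). Of these 14, 1 passed, where 2.31% of all tested genes were lower at an adjusted p under 0.05. It was Tnfsf9, the ligand 4-1BBL, which fell to 122 ± 4.11 TPM from 152 ± 10.8 TPM (SD, n = 3 each, log2 fold change -0.31, limma, adjusted p = 0.0324). Its receptor Tnfrsf9 rose from 20.6 ± 1.61 to 30.8 ± 3.40 TPM (SD, n = 3 each, log2 fold change 0.57, limma, adjusted p = 0.0218). Over the alternatives the adjusted p was 0.00484 to 0.137 for Tnfsf9 and 0.00133 to 0.0853 for Tnfrsf9.

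Of 27 other cytokine receptors 21 were tested, 17 higher (57.4% of all tested genes were) and 4 lower, and their median log2 fold change was 0.14. Of these, 4 were higher at an adjusted p under 0.05 (Tnfrsf14, Tnfrsf9, Csf3r and Il13ra1), against 3.11% of all tested genes, and 1, Csf2rb, was lower, against 2.31%. Tnfrsf14, the receptor HVEM, was the 1 that was called, against 1.18% of all tested genes. It was 3.39, 4.25 and 4.94 TPM with siControl and 10.7, 8.04 and 9.68 TPM with siNCOA4, with widely separated groups and a log2 fold change of 1.09 ± 0.15 (SE, limma, adjusted p = 0.0136). Without siNCOA4 replicate 1 or 3 its adjusted p was 0.0693 or 0.0677. Csf3r, the G-CSF receptor, had a log2 fold change of 0.38 (limma, adjusted p = 0.0326), and adjusted p-values of 0.0531 to 0.137 with single libraries left out. Il13ra1, a chain for IL-13, had a log2 fold change of 0.30 (limma, adjusted p = 0.0408) and Csf2rb, the shared β chain for GM-CSF, of -0.24 (limma, adjusted p = 0.0470), and with single libraries left out their adjusted p-values were 0.0390 to 0.151 and 0.0771 to 0.162.

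Downstream, cytokine receptors signal through JAK kinases and STAT factors, and SOCS proteins shut them off. Of 19 genes for JAK kinases, STAT factors, SOCS proteins, Pias1 and 4 PTPN phosphatases, with Jak3 listed among the γ chain genes instead, 15 were tested, 12 higher and 3 lower, and their median log2 fold change was 0.09. Of all tested genes 57.4% were higher, and 3.11% were higher at an adjusted p under 0.05. Tyk2, a kinase bound to the IL-10 and interferon receptors, passed, at 18.3 ± 0.497 and 24.8 ± 0.989 TPM (SD, n = 3 each, log2 fold change 0.43, limma, adjusted p = 0.00885), and missed the threshold when siNCOA4 replicate 3 was left out (0.0510).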

How the data were processed

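RNA of 6 J774 cultures was sequenced from stranded poly(A) libraries. The authors deposited TPM per gene and library, with no scaling between libraries, and the submitters' processing notes name Trimmomatic 0.33, HISAT2 2.1.0, featureCounts and mm10. Names and positions come from GENCODE M21 (55227 of 55487 identifiers found). Whole reads were rebuilt from TPM and exon length (tolerance 0.02 reads) for 98.5% of the 21096 genes above 0, which gave the depth and a limma-voom alternative. Testing used limma 3.58.1 (R 4.3.3) on log2(TPM + 0.5), with a trended eBayes and Benjamini-Hochberg adjustment over the 13829 genes that averaged 0.5 TPM or more. Fold changes on this scale understate those of low genes. Called genes had a fold change over 1.5 together with an adjusted p under 0.05. Single genes were also compared by an exact two-sided permutation test over 20 arrangements. A count of 0 was taken to allow 3 reads, for counting error only. The fit was checked on simulated data.

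Named are every member, Ncoa4, 14 receptor chains and decoys, called genes of 11 lists of cytokine genes (178 entries), up to 3 others per list with an adjusted p under 0.05, and the neighbours of called members. Other names were chosen after their values were seen. The members and lists were chosen with earlier results of these data known. Promoter windows are RefSeq sequence of the C57BL/6J reference, while J774 comes from BALB/c mice, and 3′ untranslated regions are the longest of each gene in GENCODE M21. The alternatives tried were each library left out, a replicate block, limma-voom with TMM scaling, an untrended eBayes, quantile normalization, median centring, mitochondrial genes removed, a minimum mean of 5 TPM or none, and pseudocounts of 0.1 and 1.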

Additional observations from a re-analysis of the deposited data

How the results depend on the processing

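All 126 values of the 8 tested members under the 16 alternatives kept the direction they had with all libraries. Changing the filter, leaving out the trend or adding the block does not alter a log2 fold change. The values from those settings therefore could not turn. The number of called members was 0 with a pseudocount of 1, with no filter, with a mean TPM of at least 5 (where Il15ra is not tested) and with the replicate block, and 0 without each library in turn, so the call of Il15ra was lost in all of these. Its log2 fold change was then 0.57 with a pseudocount of 1, 0.67 with no filter (adjusted p = 0.0749) and with the block (limma, adjusted p = 0.120), and 0.64 to 0.72 without single libraries. Il15ra stayed called with a pseudocount of 0.1, median centring, quantile normalization, mitochondrial genes removed, an untrended eBayes and limma-voom. In these settings its adjusted p was 0.00746 to 0.0384 (limma). Members with an adjusted p under 0.05 numbered 1 with no filter and 0 with the block, and 0 to 2 without single libraries. All genes with an adjusted p under 0.05 numbered 750 (3.11% of tested genes higher and 2.31% lower), 161 with the block, 499 with no filter, 404 without a trend, 1419 with limma-voom, 383 to 841 without single siControl libraries, and 176, 174 and 183 without siNCOA4 replicates 1 to 3. All called genes numbered 163, 87 with the block and 93 to 173 without single libraries. The share of called genes that were higher was 73.0%, 60.7% with median centring and 61.9% with quantile normalization, and no scaling moved the median of all genes by more than 0.06. The main fit had no replicate block because the study's methods name none. Same-numbered libraries of the groups deviated together with correlations of 0.03, -0.02 and 0.02 over all tested genes, which does not exclude pairing for single genes. The block also left Tnfrsf14 at 1.09 with an adjusted p of 0.0586, Tyk2 at 0.0515 and Il10rb at 0.0711 (limma, adjusted p). Il10ra passed the fold threshold without siControl replicate 3 (0.59) or siNCOA4 replicate 2 (0.59), in each case with an adjusted p under 0.05. Tnfrsf9 passed both thresholds without siControl replicate 2 (0.61), and the fold threshold without siNCOA4 replicate 2 (0.59, adjusted p = 0.0853) or 3 (0.63, adjusted p = 0.0512, limma). Il6st turned to -0.023 with median centring, which moved every log2 fold change by -0.058. Left-out libraries turned Il1r2 (-0.19 to 0.12), Il18rap (-0.10 to 0.017) and Il18bp (-0.14 to 0.051). The causes of the other changes were not tested. Of the reads, 136 and 242 lay behind Il15ra in siControl and siNCOA4.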

Other observations

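Genes next to other members were read out in the same fit, and those named here were chosen after their values were seen. F830045P16Rik, the nearest protein-coding gene beyond Il1b and on the same strand, was 3.26, 3.09 and 4.18 TPM with siControl and 1.61, 2.098 and 2.07 TPM with siNCOA4. Its groups were separated in the direction opposite to Il1b and Il1a (log2 fold change -0.72, limma, adjusted p = 0.0527). Ckap2l, on the other side of Il1a at a distance of 2397 bases, had a log2 fold change of 0.00 (limma, adjusted p = 0.998). Bco2, which encodes a carotenoid-cleaving enzyme and overlaps Il18 on the other strand, was 6.17, 6.62 and 5.89 TPM with siControl and 8.37, 8.41 and 7.20 TPM with siNCOA4, higher in every siNCOA4 library (log2 fold change 0.33, limma, adjusted p = 0.0920).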
